A study of Homo sapiens with 6 samples.

Results

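Glucose uptake, glycolysis and the response to low oxygen were examined through 40 genes. They were chosen by name for their textbook roles in these processes, with earlier results of these data known. All 40 were found among the 58735 genes listed, and 36 of them had a mean of at least 1 FPKM over the 6 libraries and were tested. FPKM, the authors' deposited unit, is a read number scaled to gene length and to a library size, so levels of different genes can be set side by side. That size was not the read total here, as described below. The measurements are RNA-seq libraries of SKOV3, an established human ovarian carcinoma line. In the siHJURP group the cells had received a small interfering RNA against HJURP, the chaperone that delivers the centromeric histone CENPA, and in the NC group a negative control siRNA. Both groups were harvested 24 h later and had 3 libraries each, and no further agent, oxygen treatment or glucose treatment is named in the labels. Whether the replicates were separate cultures is unclear from the labels, so p-values measure the spread between these libraries, which may be partly technical.

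Glycolysis converts glucose to pyruvate in a chain of cytosolic enzymes, and many tumour cells reduce much of that pyruvate to lactate and export it even when oxygen is present. Hypoxia-inducible factors (HIFs) pair an oxygen-controlled alpha subunit, HIF1A or EPAS1, with the constant partner ARNT. With oxygen, prolyl hydroxylases of the EGLN family mark the alpha subunit for VHL, which directs its breakdown, so that HIF activity is set largely at the level of the protein. When oxygen is low the dimer activates genes of glucose import, of most glycolytic steps, of blood vessel growth and of acid handling. MYC and other factors act on several of the same genes.

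The targeted gene, HJURP, stood at 8.66, 8.64 and 8.65 FPKM in the siHJURP libraries and at 29.2, 29.02 and 29.99 FPKM in the NC libraries, in the order of their replicate numbers (limma log2 fold change -1.66). The libraries held 17524772 to 18027065 reads in siHJURP and 17116487 to 17625638 in NC. Dividing the size that FPKM implies by this total gave 1.022 to 1.027 in siHJURP, but 0.985 to 0.989 in NC. FPKM therefore places siHJURP lower against NC than scaling to total reads does. The median log2 fold change of all tested genes was -0.01 with FPKM and 0.04 with total reads. Which scale is nearer to RNA per cell was not tested. Of 11 markers of ovarian carcinoma and SKOV3, 8 had a mean of at least 1 FPKM, and the summed level of all 11 was 618 to 661 FPKM in siHJURP and 672 to 677 FPKM in NC. Within that sum ERBB2 rose (log2 0.37), while SOX17 (-0.93), KRT18 (-0.85), KRT8 (-0.46), KRT19 (-0.35) and PAX8 (-0.27) fell. EPCAM, WT1 and MUC16, epithelial and ovarian tumour markers, were below 1 FPKM. Of 11 markers of blood, endothelial, stromal, red cell and liver cells, 1 (COL1A1) reached 1 FPKM and CD3E had no read. In siHJURP, 2 libraries stood apart. The summed level of 12 interferon response genes was 617 and 859 FPKM in siHJURP replicates 1 and 3, but 158 FPKM in siHJURP replicate 2, against 149 to 169.6 FPKM in NC. The part of these genes in the results below was not tested.

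Most of the 36 tested genes that changed were lower in siHJURP. A gene is called changed here at a limma adjusted p under 0.05, taken over all 13365 tested genes. By that rule 19 of the 36 fell and 2 rose, while 15 did not pass. Of all tested genes, 20.3% fell and 17.6% rose, 37.9% in all. The shares among the 36 were 52.8% and 5.56%. Scaling moved this split: over all tested genes 2713 fell and 2355 rose, but with TPM 2144 fell and 3155 rose, and with total reads 2198 fell and 3102 rose. With quantile scaling 2412 of all tested genes fell and 2740 rose. Among the 36 genes, 18 fell and 5 rose with TPM, 16 fell and 3 rose with total reads, and 14 fell and 4 rose with quantile scaling. The median log2 fold change of the 36 was -0.18, and that of all tested genes was -0.01. In 21 of the 36 the siHJURP values lay wholly below the NC values and in 4 wholly above, where the shares over all tested genes were 26.8% and 25.4%. The members were chosen with earlier results of these data known, so these shares carry no test. The count of risen members was 4 without NC replicate 2, where 2192 of all tested genes rose. Without both siHJURP replicates 1 and 3, the libraries with high interferon response genes, 10 fell and 1 rose, and of all tested genes 1128 fell and 716 rose. That setting leaves 1 siHJURP library, which is assumed to vary as the NC libraries do, so a call lost there does not show dependence on the libraries left out. Leaving out any 1 library also lowered the number of calls over all tested genes, from 5068 to between 3719 and 4724. A call lost in such a setting does not by itself show dependence on the library left out. In these bulk libraries fewer cells of a type and less RNA per cell cannot be told apart. ALDOA, ALDOC, ENO2, LDHA, PFKFB4, PGK1 and SLC16A3 overlap another tested gene on the same strand, so their levels are uncertain to the extent that reads were shared.

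A fall of at least 1.5-fold in mean FPKM was found for 6 of the 36 (16.7%), against 5.65% of all tested genes. These were ANGPTL4, VEGFA, NDRG1, SLC2A1, PGK1 and PKM. PKM lay at the cut, with 1.501-fold, and its log2 fold change ran from -0.60 to -0.40 over the alternative settings. The count was taken on FPKM only and was not repeated on other scales. Counting up from the lowest log2 fold change of all tested genes, ANGPTL4 stood 32nd, VEGFA 148th, NDRG1 172nd, SLC2A1 196th, PGK1 215th and PKM 625th.

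**Figure D1:**
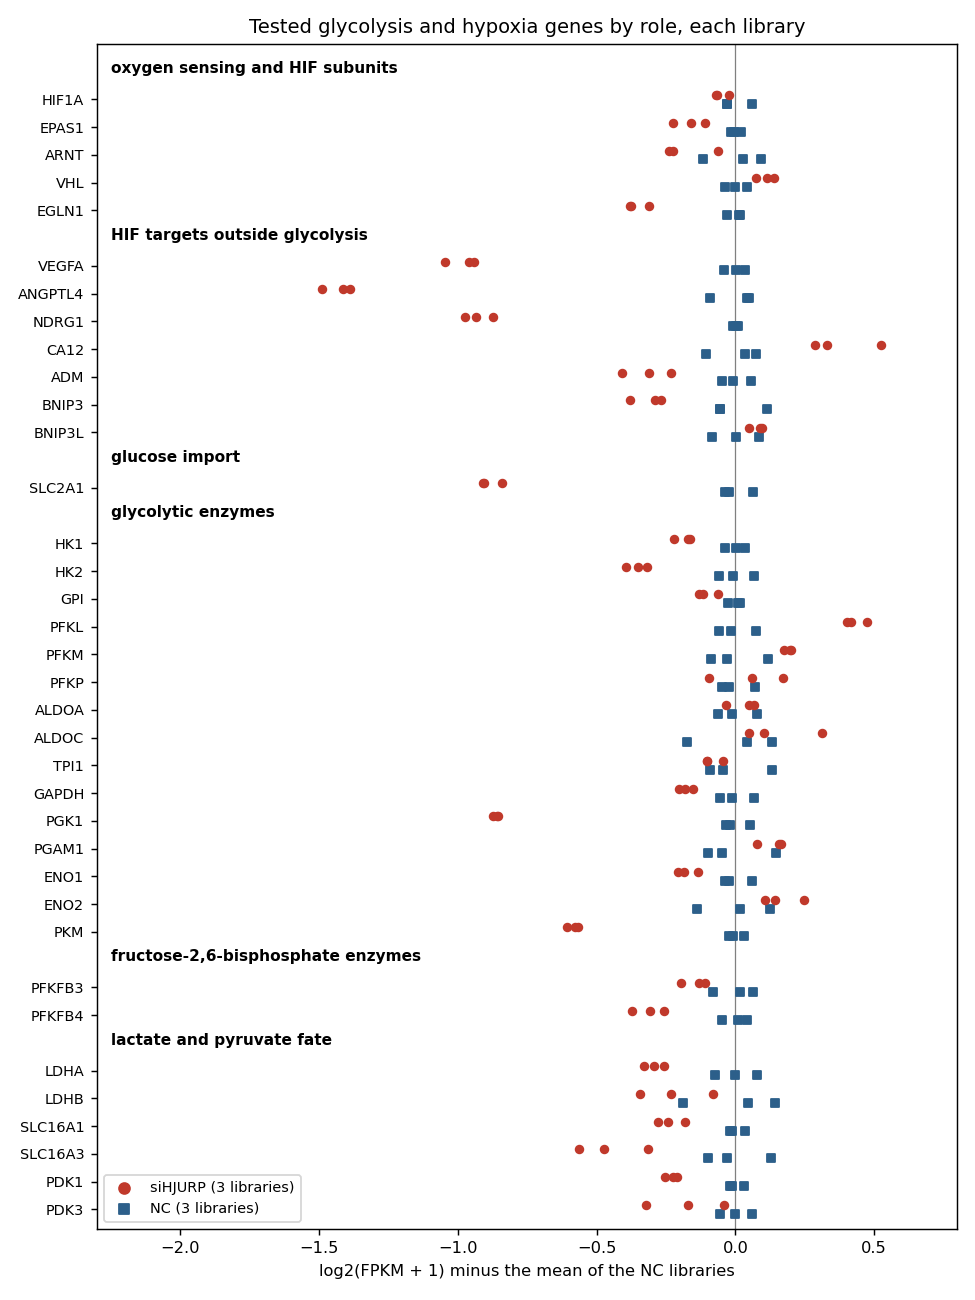
Each row is one of the 36 tested genes, grouped by role; the horizontal axis is log2(FPKM + 1) minus the mean of the 3 NC libraries, with siHJURP libraries as red circles above and NC libraries as blue squares below. The largest shifts to the left are ANGPTL4, VEGFA, NDRG1, SLC2A1, PGK1 and PKM, and PFKL and CA12 lie to the right.

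Among the genes that sense oxygen, EGLN1 and EPAS1 fell and the other 3 tested did not pass. HIF1A, the alpha subunit of the best known HIF dimer, had 176, 171 and 171 FPKM in siHJURP and 176, 175 and 187 FPKM in NC, again by replicate number. These groups overlapped, and the log2 fold change of -0.05 (95% interval -0.15 to 0.04) did not pass (adjusted p = 0.324) and turned positive under TPM, quantile and total-read scaling. HIF1A overlaps HIF1A-AS2 on the opposite strand, whose level averaged 2.03 FPKM in siHJURP and 2.23 FPKM in NC. EPAS1, the alternative alpha subunit also called HIF-2 alpha, had 9.29, 8.85 and 9.68 FPKM in siHJURP and 10.7, 10.4 and 10.5 FPKM in NC. It was lower in each siHJURP library than in any NC library and fell by 0.16 on the log2 scale (SE 0.044, limma adjusted p = 0.0243). That call was lost without siHJURP replicate 1 (log2 -0.17, adjusted p = 0.0711) or 2 (log2 -0.13, 0.0659). It was also lost without NC replicate 1 (log2 -0.15, 0.0715) or 3 (log2 -0.17, 0.0635). The same held with TPM (adjusted p = 0.13), quantile (0.0585) and total-read scaling (0.0822). ARNT, the partner of both alpha subunits, averaged 9.36 ± 0.71 FPKM in siHJURP and 10.7 ± 0.86 FPKM in NC (± is the SD of 3 libraries, here and later) and did not pass (adjusted p = 0.0961, or 0.0395 without NC replicate 2).

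EGLN1, the main prolyl hydroxylase that marks HIF alpha subunits and itself a HIF target, had 10.1, 10.1 and 10.6 FPKM in siHJURP and 13.1, 13.6 and 13.6 FPKM in NC. The groups did not overlap, and the level was 23.5% lower (log2 -0.36, SE 0.040, adjusted p = 0.000686). VHL, the subunit that recognises hydroxylated HIF alpha, averaged 26.2 ± 0.60 FPKM in siHJURP and 24.2 ± 0.68 FPKM in NC. Its siHJURP values lay above the NC values, but the log2 difference of 0.11 did not pass (adjusted p = 0.0588, or 0.0435 without NC replicate 2). VHL passed as higher with TPM (log2 0.17, adjusted p = 0.00756), quantile scaling (adjusted p = 0.015), total reads (adjusted p = 0.0134) and array weights (adjusted p = 0.027). EGLN3, the hydroxylase most strongly induced in hypoxia, stood at 0.400 to 0.524 FPKM in siHJURP and 0.444 to 0.593 FPKM in NC, on 53 to 76 reads per library, and was too low to be tested. Of the 5 tested genes of this group 2 fell (40%) and none rose, where 20.3% of all tested genes fell and 17.6% rose. The group's counts were 1 and 0 without siHJURP replicate 1 or 2 or NC replicate 1 or 3, and 3 and 1 without NC replicate 2. In those settings 2070 to 2532 of all tested genes fell and 1649 to 2192 rose.

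Among HIF targets outside glycolysis, 5 of 7 tested genes fell and 1 rose, with a median log2 fold change of -0.32. The shares were 71.4% and 14.3%, against 20.3% and 17.6% of all tested genes. The counts of 5 and 1 were the same without any single library. The lowest was ANGPTL4, a secreted inhibitor of lipoprotein lipase, with 2.24, 2.47 and 2.42 FPKM in siHJURP and 8.40, 7.55 and 8.36 FPKM in NC. All siHJURP libraries were below all NC libraries, by 3.41-fold in mean FPKM (limma log2 fold change of FPKM + 1 -1.43, SE 0.059, adjusted p = 1.94e-05). The log2 values of the main fit all use FPKM + 1. For weakly expressed genes they are therefore smaller in size than the fold in mean FPKM. The values rest on 101 to 113 reads per siHJURP library and 326 to 357 per NC library.

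VEGFA, the growth factor that drives formation of blood vessels, had 5.73, 5.34 and 5.82 FPKM in siHJURP and 12.1, 12.4 and 11.7 FPKM in NC, 2.15-fold lower in the mean (log2 -0.98, SE 0.047, adjusted p = 2.63e-05). NDRG1, a stress-induced gene named for its regulation by MYCN, had 11.99, 12.4 and 12.9 FPKM in siHJURP and 24.4, 24.7 and 24.5 FPKM in NC (log2 -0.93, SE 0.039, adjusted p = 2.06e-05). For both genes the spread within a group was under 1 FPKM and the groups lay far apart. Smaller falls were seen for ADM, the vasodilator peptide adrenomedullin, and for BNIP3, a mitochondrial receptor of mitophagy. ADM averaged 14.3 ± 0.94 FPKM in siHJURP and 18.1 ± 0.70 FPKM in NC (log2 -0.32, adjusted p = 0.00443). BNIP3 averaged 17.5 ± 0.75 FPKM in siHJURP and 22.03 ± 1.6 FPKM in NC (log2 -0.31, adjusted p = 0.00609, or log2 -0.38 and 0.0566 without both siHJURP replicates 1 and 3).

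Other genes of this group did not fall. CA12, a carbonic anhydrase at the cell surface that handles acid, had 4.06, 3.91 and 4.79 FPKM in siHJURP and 3.24, 2.74 and 3.12 FPKM in NC. Each siHJURP library was above each NC library, and CA12 rose by 0.38 on the log2 scale (SE 0.084, adjusted p = 0.0119, or log2 0.29 and 0.16 without both siHJURP replicates 1 and 3). CA9, the related anhydrase widely used as a hypoxia marker, had 4 to 10 reads per siHJURP library and 3 to 14 per NC library, so that no difference was detectable at this depth. BNIP3L, the paralog of BNIP3, averaged 23.2 ± 0.41 FPKM in siHJURP and 21.97 ± 1.3 FPKM in NC and did not pass (log2 0.08, 95% interval -0.04 to 0.20). ANKRD37 had 25 to 50 reads per siHJURP library and 17 to 40 per NC library and was not tested.

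**Figure D2:**
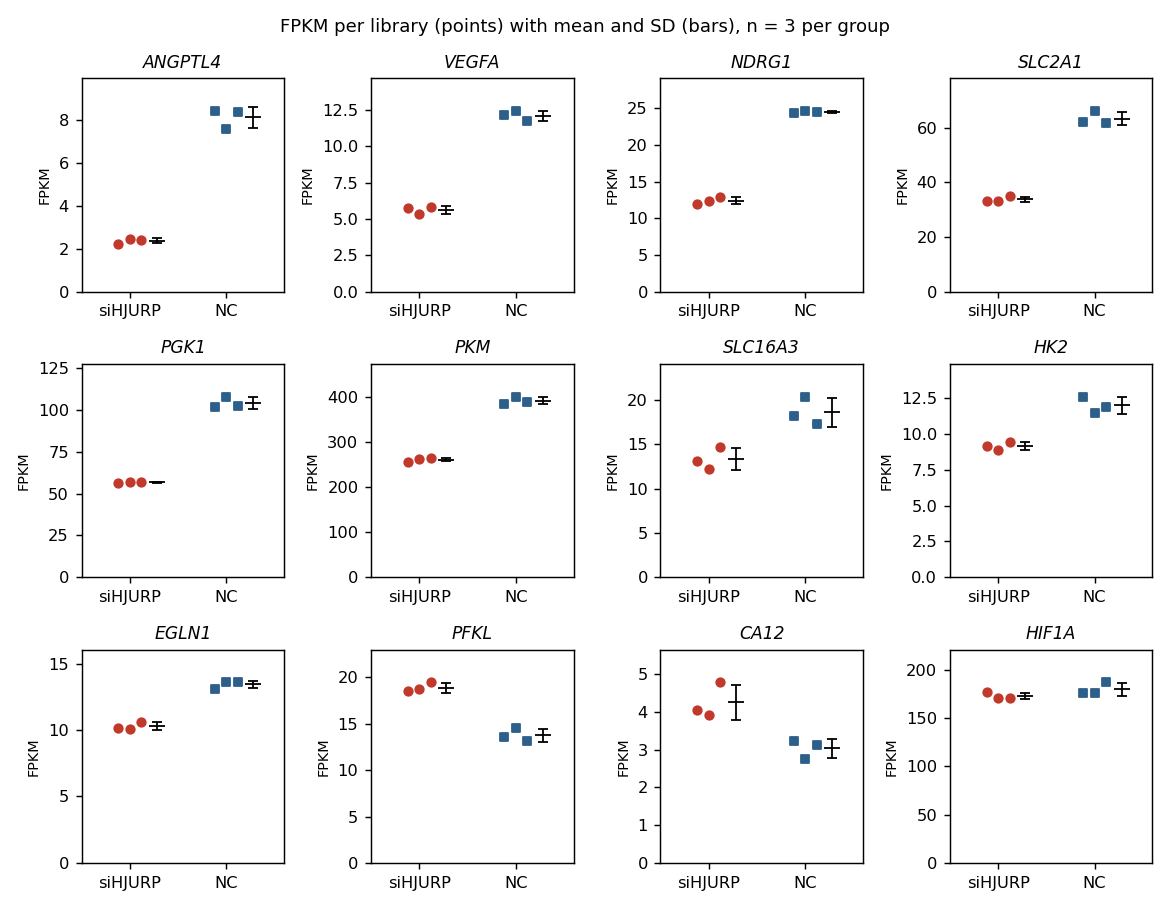
FPKM of 12 members in each library (points, siHJURP left and NC right), with the mean and SD of 3 libraries as a bar beside them; every vertical axis starts at 0. In HIF1A the groups overlap, in PFKL and CA12 the siHJURP libraries are higher, and in the other 9 panels all siHJURP libraries are lower.

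Of both glucose carriers, SLC2A1 was by far the more abundant transcript. SLC2A1 (GLUT1), the widespread carrier of basal glucose uptake, had 33.3, 33.3 and 34.9 FPKM in siHJURP and 62.2, 66.1 and 61.7 FPKM in NC. The groups were clearly separate and the mean was 46.6% lower (log2 -0.89, SE 0.041, adjusted p = 2.58e-05). SLC2A3 (GLUT3) had 2 to 6 reads in siHJURP and 2 to 5 in NC, and no fold change is given.

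Along the glycolytic enzymes, 6 of 15 tested genes fell, 1 rose and 8 did not pass. The fallen and risen shares were 40% and 6.67%, against 20.3% and 17.6% of all tested genes. Scaling moved these counts. With quantile scaling 3 of the 15 fell and 2 rose, where 2412 of all 13365 tested genes fell and 2740 rose. With total reads 4 fell and 1 rose, and with TPM 6 fell and 2 rose. The median log2 fold change was -0.08, and 0.05 under quantile scaling. The falls were uneven. PGK1 and PKM, the enzymes of the ATP-yielding steps, fell most, while the hexokinases, GAPDH and ENO1 fell less and aldolase, TPI1 and PGAM1 did not pass.

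The first step is phosphorylation of glucose by hexokinase. HK1, the housekeeping isozyme, had 45.3, 47.2 and 46.9 FPKM in siHJURP and 54.3, 51.6 and 53.0 FPKM in NC, without overlap (log2 -0.18, SE 0.036, adjusted p = 0.00687). Its call was lost under quantile scaling (adjusted p = 0.0663). HK2, the isozyme often raised in tumours, had 9.17, 8.87 and 9.40 FPKM in siHJURP and 12.6, 11.5 and 11.9 FPKM in NC. It too was separate between the groups, and its mean was 23.7% lower (log2 -0.35, SE 0.047, adjusted p = 0.00139). HKDC1, a further hexokinase that is not among the 40, rose instead, with 26.4 ± 1.0 FPKM in siHJURP and 21.8 ± 0.95 FPKM in NC (log2 0.26, adjusted p = 0.00484). Summed over HK1 and HK2 the step had 55.6 ± 0.98 FPKM in siHJURP and 64.9 ± 1.9 FPKM in NC, 14.3% lower. With HKDC1 added the sums were 82.0 ± 1.6 FPKM in siHJURP and 86.7 ± 2.1 FPKM in NC, 5.50% lower.

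GPI, which converts glucose-6-phosphate to fructose-6-phosphate, averaged 35.3 ± 0.91 FPKM in siHJURP and 38.0 ± 0.60 FPKM in NC and did not pass (log2 -0.10, adjusted p = 0.0545). Phosphofructokinase catalyses a main regulated step of glycolysis, and PFKL was the one glycolytic enzyme of the 40 genes that rose. PFKL, the liver-type subunit, had 18.5, 18.7 and 19.5 FPKM in siHJURP and 13.6, 14.5 and 13.1 FPKM in NC. Every siHJURP library was above every NC library and the mean was 37.3% higher (log2 0.43, SE 0.047, adjusted p = 0.000652). PFKP, the platelet-type subunit and the most abundant of the 3 here, overlapped between groups, at 71.6 ± 6.6 FPKM in siHJURP and 69.1 ± 3.0 FPKM in NC (log2 0.05, 95% interval -0.12 to 0.21). The direction of this difference was reversed without siHJURP replicate 3 (log2 -0.02). PFKM, the muscle-type subunit, stood at 1.45 to 1.495 FPKM in siHJURP and 1.05 to 1.36 FPKM in NC and did not pass (adjusted p = 0.159). PFKM overlaps SENP1 on the opposite strand, which averaged 4.43 FPKM in siHJURP and 7.90 FPKM in NC. The summed level of the 3 subunits was 91.9 ± 7.0 FPKM in siHJURP and 84.1 ± 3.8 FPKM in NC, with overlap.

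PFKFB3 and PFKFB4 make and degrade fructose-2,6-bisphosphate, the activator of phosphofructokinase. PFKFB4 fell, with 2.61, 2.45 and 2.74 FPKM in siHJURP and 3.32, 3.49 and 3.59 FPKM in NC (log2 -0.31, SE 0.061, adjusted p = 0.00708). PFKFB3, the more abundant of the pair, averaged 21.4 ± 0.68 FPKM in siHJURP and 23.8 ± 1.2 FPKM in NC, without overlap and just outside the threshold (log2 -0.15, adjusted p = 0.0510). Without NC replicate 3 it passed (adjusted p = 0.0308). PFKFB2, a related isozyme outside the 40, rose, with 5.58 ± 0.41 FPKM in siHJURP and 4.02 ± 0.11 FPKM in NC (log2 0.39, adjusted p = 0.0025).

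For aldolase, which splits fructose-1,6-bisphosphate, the level of ALDOA cannot be read at face value. ALDOA had 443 to 517 reads per library, and AC093512.2, a longer protein-coding gene on the same strand, covers nearly all of its span. The labels do not say how reads that fall in both genes were counted. The listed levels were 7.11 ± 0.30 FPKM in siHJURP and 6.96 ± 0.40 FPKM in NC for ALDOA (log2 0.03, 95% interval -0.10 to 0.16). The sign of that difference turned without NC replicate 1 (log2 -0.01). ALDOC, the brain-type aldolase, had 1.22 ± 0.22 FPKM in siHJURP and 0.991 ± 0.21 FPKM in NC on 38 to 77 reads and did not pass. TPI1, which interconverts the triose phosphates, averaged 171 ± 4.0 FPKM in siHJURP and 182 ± 15 FPKM in NC (log2 -0.08, 95% interval -0.23 to 0.06, positive under quantile scaling).

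GAPDH, the triose phosphate dehydrogenase that is often used as a reference transcript, had 519, 529 and 510.0 FPKM in siHJURP and 566, 617 and 583 FPKM in NC. The groups did not overlap, and GAPDH fell by 0.18 on the log2 scale (SE 0.044, adjusted p = 0.018), a difference of 0.02 in the other direction under quantile scaling. The call was lost without siHJURP replicate 1 (adjusted p = 0.0666) or 3 (0.0599) and without NC replicate 3 (0.051). The 62 listed GAPDH pseudogenes summed to 6.20 to 7.03 FPKM in siHJURP and 6.37 to 9.67 FPKM in NC. Reads shared between GAPDH and these copies may have been split by the counting.

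PGK1, phosphoglycerate kinase, which makes the first ATP of the payoff phase, had the largest fall among the enzymes. It had 56.3, 56.9 and 57.0 FPKM in siHJURP and 102, 108 and 103 FPKM in NC. The siHJURP libraries agreed within 1 FPKM and all lay far below NC, with a mean 45.5% lower (log2 -0.86, SE 0.036, adjusted p = 1.94e-05). These values rest on 5628 to 5784 reads per siHJURP library and 9531 to 10355 per NC library. PGK1 (ENSG00000102144, chromosome X, 77910739 to 78129296 in hg38) is overlapped by ATP7A on the same strand at 1.92 FPKM in siHJURP and 1.77 FPKM in NC, and by PGAM4 on the opposite strand.

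The promoters of the enzyme that fell most, PGK1, and of the enzyme that rose, PFKL, are shown because HIF binds DNA at a short core, and ACGTG is its best known form. The sequences are RefSeq windows of 300 bases in GRCh38.p14, from 250 bases before to 50 after the annotated start, on the strand of the gene, here the plus strand for both. PGK1 lies at chrX:78103998-78104297 and PFKL at chr21:44299803-44300102. Capitals mark ACGTG or its reverse complement CACGT. The 6-base sequence CACGTG, which MYC-type factors also bind, holds both.
PGK1: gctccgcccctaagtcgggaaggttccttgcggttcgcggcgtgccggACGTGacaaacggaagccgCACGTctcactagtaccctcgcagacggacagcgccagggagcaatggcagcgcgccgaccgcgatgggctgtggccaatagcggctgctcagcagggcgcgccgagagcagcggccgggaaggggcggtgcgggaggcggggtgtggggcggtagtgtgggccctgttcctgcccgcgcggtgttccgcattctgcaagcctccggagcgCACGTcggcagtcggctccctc
PFKL: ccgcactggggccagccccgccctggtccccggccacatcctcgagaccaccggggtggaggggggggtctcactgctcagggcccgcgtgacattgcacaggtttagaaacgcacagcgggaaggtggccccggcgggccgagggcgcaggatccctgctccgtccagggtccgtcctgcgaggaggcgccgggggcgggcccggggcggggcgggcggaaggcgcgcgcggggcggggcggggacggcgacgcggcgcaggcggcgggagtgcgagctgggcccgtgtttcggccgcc
The PGK1 window held 3 matches to this form and the PFKL window 0. Other forms of the core, such as GCGTG, were neither searched nor marked, and GCGTG stands in both windows. The 0 therefore does not mean that PFKL lacks a core.

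The same letters occurred in promoters of genes that fell and of genes that did not. Of the 40 genes, 34 had at least 1 window in the RefSeq table, and 20 of these (58.8%) held the motif in some window, against 24.9% of all 27305 genes in the table. By window the shares were 39.3% of 61 and 21.4% of 35116. BNIP3L, NDRG1, SLC16A1, SLC2A3, VEGFA and VHL had no window. Among members with a window, 9 of 16 that fell, 0 of 2 that rose and 9 of 13 that did not pass held it. The fallen genes without a match were ADM, ENO1, EPAS1, HK1, PFKFB4, PKM and SLC2A1, so large falls occurred without it too. A match is a description of the letters and not a measured binding site. Stretches around one match are given for genes that fell (ANGPTL4, EGLN1, LDHA and GAPDH) and for genes that did not pass (GPI, ALDOA and ENO2), with capitals as before.
ANGPTL4: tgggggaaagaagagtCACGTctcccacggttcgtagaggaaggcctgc
EGLN1: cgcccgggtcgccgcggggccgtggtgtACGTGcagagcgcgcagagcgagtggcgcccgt
LDHA: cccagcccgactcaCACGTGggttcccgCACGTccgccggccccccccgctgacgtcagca
GAPDH: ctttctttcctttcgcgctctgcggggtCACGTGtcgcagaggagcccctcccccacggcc
GPI: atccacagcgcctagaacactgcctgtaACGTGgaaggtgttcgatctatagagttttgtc
ALDOA: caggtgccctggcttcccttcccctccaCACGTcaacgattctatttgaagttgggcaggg
ENO2: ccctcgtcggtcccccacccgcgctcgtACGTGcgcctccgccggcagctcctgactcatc
In LDHA and GAPDH the marked run includes CACGTG. These stretches lie at chr19:8363905-8363953, chr1:231422268-231422328 (minus strand), chr11:18394462-18394522, chr12:6535155-6535215, chr19:34364802-34364862, chr16:30064073-30064133 and chr12:6914434-6914494, in the order printed.

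Downstream of PGK1, PGAM1, the phosphoglycerate mutase, had 126, 119 and 126 FPKM in siHJURP and 105, 125 and 109 FPKM in NC. The groups overlapped and the log2 difference of 0.13 did not pass (adjusted p = 0.164), though it did without NC replicate 2 (0.0135). It also passed with quantile scaling (log2 0.26, adjusted p = 0.00864), TPM (0.19, adjusted p = 0.0409) and array weights (0.17, adjusted p = 0.0405). ENO1, the ubiquitous enolase, was the most abundant of the 40, with 595, 627 and 604 FPKM in siHJURP and 669.7, 717 and 676 FPKM in NC. It fell by 0.18 on the log2 scale without overlap (SE 0.044, adjusted p = 0.019), a call lost without siHJURP replicate 1 (0.0832) or 3 (0.058), with quantile scaling (log2 -0.06, adjusted p = 0.136) and with total reads (log2 -0.12, adjusted p = 0.0599). ENO2, the neuronal enolase, had 6.90, 7.10 and 7.69 FPKM in siHJURP and 6.99, 6.42 and 5.65 FPKM in NC, overlapped and did not pass (adjusted p = 0.128). ENO2 overlaps LRRC23 on the same strand, at 1.996 FPKM in siHJURP and 0.999 FPKM in NC.

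PKM, pyruvate kinase of the muscle and tumour type, had 256, 262 and 264 FPKM in siHJURP and 385, 401 and 389 FPKM in NC. The gap between the groups was many times the spread within them, and the mean was 33.4% lower (log2 -0.58, SE 0.035, adjusted p = 5.55e-05). PKM makes 2 well known splice forms, which gene-level values do not tell apart.

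**Figure D3:**
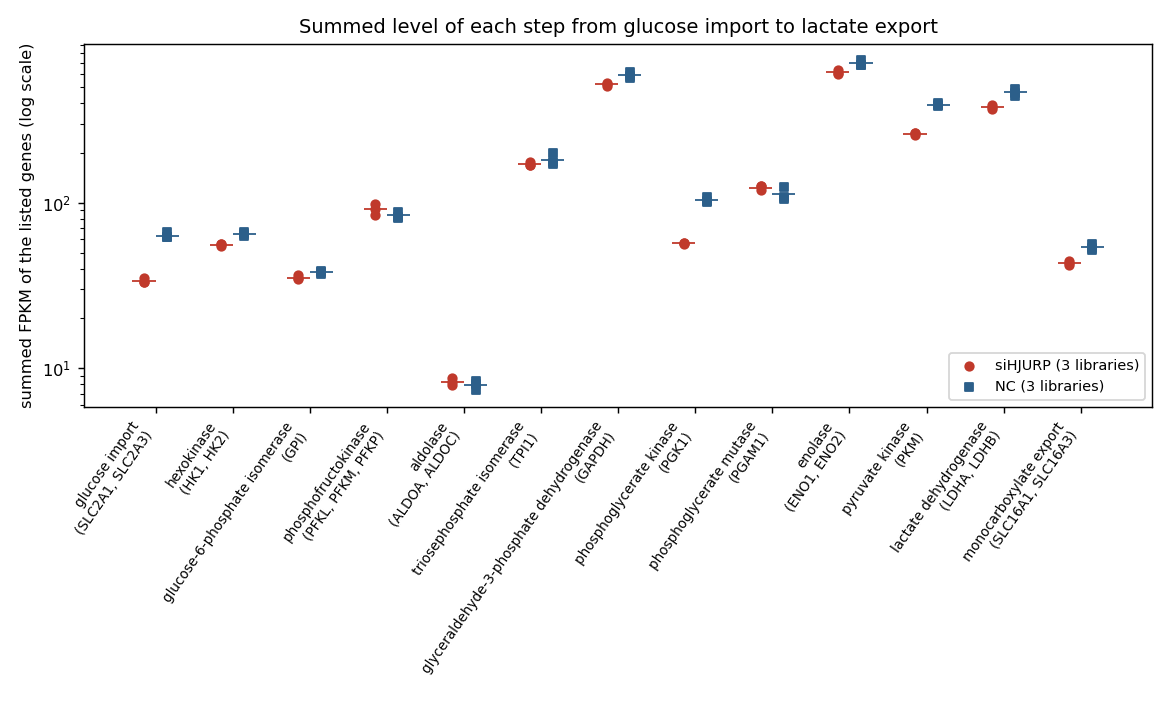
Summed FPKM of the listed genes at each step from glucose import to lactate export, on a log axis, in each siHJURP library (red circles) and each NC library (blue squares), with group means as lines. Glucose import, phosphoglycerate kinase and pyruvate kinase show the widest gaps between groups, and phosphofructokinase, aldolase, triosephosphate isomerase and phosphoglycerate mutase overlap.

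Pyruvate is then reduced to lactate and exported, or enters the mitochondrion, where pyruvate dehydrogenase kinases restrain its further use by pyruvate dehydrogenase. Of 6 tested genes of this group 4 fell and none rose, with a median log2 fold change of -0.23. The fallen share was 66.7%, where 20.3% of all tested genes fell and 17.6% rose. LDHA, the lactate dehydrogenase subunit typical of glycolytic tissue, had 374, 383 and 365 FPKM in siHJURP and 435, 483 and 458 FPKM in NC. It was lower in each siHJURP library (log2 -0.29, SE 0.048, adjusted p = 0.00349), a call lost under quantile scaling (log2 -0.06, adjusted p = 0.299). LDHB, the heart-type subunit, had 4.35 ± 0.50 FPKM in siHJURP and 5.24 ± 0.71 FPKM in NC and did not pass (adjusted p = 0.138, or 0.0468 without NC replicate 3). LDHB made up 1.06 to 1.26% of the summed LDHA and LDHB level in siHJURP and 0.963 to 1.23% in NC.

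SLC16A3 (MCT4), the lactate exporter of strongly glycolytic cells and a HIF target, had 13.1, 12.3 and 14.7 FPKM in siHJURP and 18.2, 20.4 and 17.3 FPKM in NC. Its groups did not overlap (log2 -0.45, SE 0.082, adjusted p = 0.00503). SLC16A3 overlaps CSNK1D on the opposite strand, at 16.3 FPKM in siHJURP and 15.7 FPKM in NC. SLC16A1 (MCT1), the more widely expressed monocarboxylate carrier, averaged 29.8 ± 1.0 FPKM in siHJURP and 35.3 ± 0.74 FPKM in NC (log2 -0.23, adjusted p = 0.00354). BSG, the chaperone that brings both carriers to the cell surface, also fell, with 199 ± 2.9 FPKM in siHJURP and 251 ± 9.99 FPKM in NC (log2 -0.33, adjusted p = 0.000926).

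PDK1 and PDK3 phosphorylate and switch off pyruvate dehydrogenase. PDK1, a HIF target, had 2.06, 2.15 and 2.11 FPKM in siHJURP and 2.61, 2.72 and 2.59 FPKM in NC, without overlap (log2 -0.23, SE 0.062, adjusted p = 0.0248). Its call was lost without any one of the 6 libraries. The adjusted p was 0.0776, 0.0507 and 0.0634 without siHJURP replicates 1, 2 and 3, and 0.0606, 0.0608 and 0.059 without NC replicates 1, 2 and 3. PDK3 overlapped between groups, at 2.96 ± 0.38 FPKM in siHJURP and 3.47 ± 0.18 FPKM in NC (adjusted p = 0.138).

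Whether members of one step changed by different amounts was tested on the log2 ratio of their FPKM + 1 in each library, for 14 pairs. In 9 pairs the siHJURP and NC ratios did not overlap, where 26.8% of all tested genes were lower and 25.4% higher without overlap, so this count is not a result about isozymes. In 3 of the 9 (SLC2A3 to SLC2A1, EGLN3 to EGLN1 and CA12 to CA9) a member was too low to be tested, and with the added 1 the ratio mostly restates the other gene. For these 3 and for PFKM to PFKL, the members' shares of their summed FPKM overlapped between groups, which leaves 5 pairs. Each of the 9 gave an exact permutation p of 0.1, the smallest that 3 against 3 libraries allow, and 0.156 after adjustment over the pairs, so none could pass. For PFKP to PFKL the difference in log2 ratio was -0.38, with means of 1.86 in siHJURP and 2.25 in NC. PFKP made up 77.6 to 80.0% of the sum with PFKL in siHJURP and 83.1 to 83.8% in NC. For BNIP3L to BNIP3 the difference was 0.39, and BNIP3L made up 56.1 to 58.4% of the sum in siHJURP and 49.4 to 51.0% in NC. The limit given above for BNIP3 and its pseudogenes applies to this balance too. The difference was -0.17 for HK2 to HK1 and 0.34 for ENO2 to ENO1. The balances of LDHB to LDHA and of PDK3 to PDK1 overlapped between groups (exact permutation p = 0.7 for each).

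**Figure D4:**
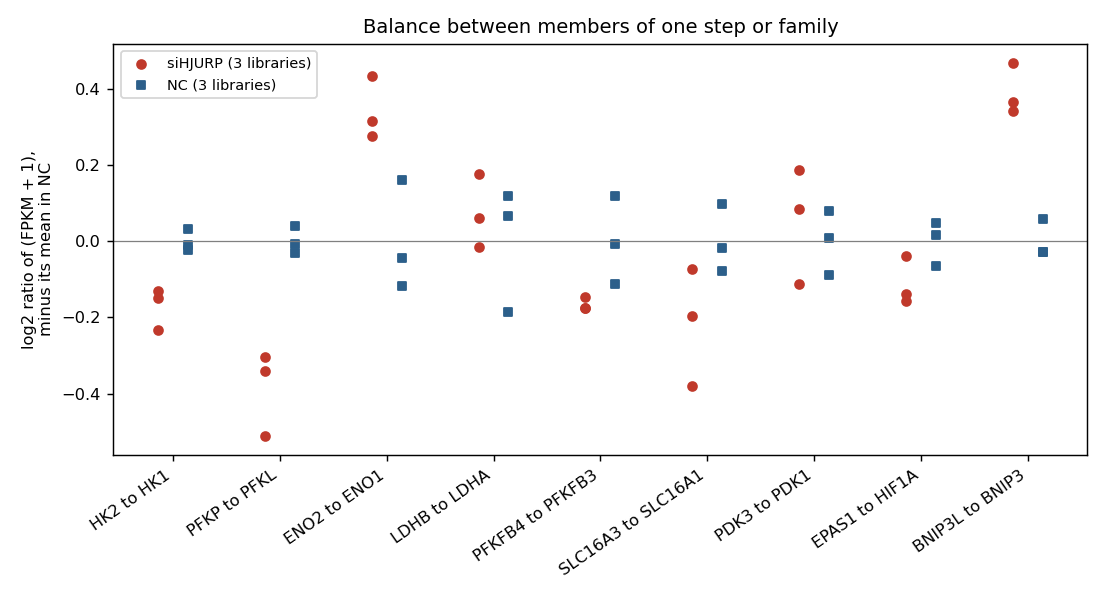
The log2 ratio of FPKM + 1 between both members of 9 pairs, minus its mean in NC, in each siHJURP library (red circles, left) and each NC library (blue squares, right). The siHJURP and NC libraries do not overlap for HK2 to HK1, PFKP to PFKL, ENO2 to ENO1, PFKFB4 to PFKFB3 and BNIP3L to BNIP3.

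Related genes were counted through 6 further lists. Among other HIF targets, 7 of 30 tested genes fell and 6 rose. These shares, 23.3% and 20%, were near the 20.3% and 17.6% of all tested genes. The median log2 fold change of -0.02 turned to 0.03 under TPM, quantile and total-read scaling. STC1, the secreted hormone stanniocalcin, had 3.47, 3.90 and 4.27 FPKM in siHJURP and 14.2, 13.1 and 12.6 FPKM in NC (log2 -1.56, SE 0.074, adjusted p = 2.63e-05). ERO1A, the oxidase of disulfide bond formation in the endoplasmic reticulum, was higher, with 23.6, 23.2 and 21.0 FPKM in siHJURP and 11.1, 11.7 and 10.9 FPKM in NC (log2 0.94, SE 0.055, adjusted p = 4.93e-05). In both genes the groups were widely separate. LOXL2, a lysyl oxidase of the matrix, fell by 0.58 and ZNF395 by 0.64 on the log2 scale (adjusted p = 0.000424 and 0.000221). The median was 0.02 without siHJURP replicate 2 or NC replicate 2. The lower count was 4 without siHJURP replicate 1, NC replicate 1 or NC replicate 2, and 3 without siHJURP replicate 2. In those settings 2070 to 2532 of all tested genes fell, against 2713 with all libraries. Without both siHJURP replicates 1 and 3 the median was -0.06.

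Of 11 tested partners of HIF and its degradation, 3 fell and 1 rose (27.3% and 9.09%, against 20.3% and 17.6% of all tested genes). EP300, the coactivator that HIF recruits, averaged 11.0 ± 0.58 FPKM in siHJURP and 14.9 ± 1.6 FPKM in NC (log2 -0.40, adjusted p = 0.00752). ELOC and ELOB, subunits that link VHL to its ligase, fell by 0.33 and 0.22, and ELOB lost its call without siHJURP replicate 1 (0.0743) or 2 (0.0617). SIAH2, a ubiquitin ligase that acts on EGLN proteins, rose by 0.31 (adjusted p = 0.0013).

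Among other glycolysis isozymes and regulators, 4 of 13 tested genes fell and 2 rose, the risen ones being HKDC1 and PFKFB2. The shares were 30.8% and 15.4%, against 20.3% and 17.6% of all tested genes. TXNIP, which restrains glucose uptake and is induced by glucose through MondoA, had 72.7, 74.7 and 74.4 FPKM in siHJURP and 129, 130.01 and 132 FPKM in NC. Its groups were far apart (log2 -0.81, SE 0.032, adjusted p = 1.71e-05). PGM2, a phosphopentomutase, fell by 0.31 on the log2 scale (adjusted p = 0.000827).

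Among genes that carry pyruvate into the mitochondrion and those of the pentose phosphate pathway, most that passed the test were higher. Of 11 genes of pyruvate dehydrogenase and pyruvate import 5 rose and none fell, with a median log2 fold change of 0.13. The risen share was 45.5%, where 17.6% of all tested genes rose and 20.3% fell. MPC1, a subunit of the mitochondrial pyruvate carrier, had 7.02 ± 0.57 FPKM in siHJURP and 5.04 ± 0.38 FPKM in NC (log2 0.41, SE 0.072, adjusted p = 0.0045), and DLD, the shared dihydrolipoamide dehydrogenase, rose by 0.22 (adjusted p = 0.00874). The count of risen genes was 3 without siHJURP replicate 1 or 2 and 2 without NC replicate 1. Over all tested genes 1649, 1985 and 1861 rose in these settings, against 2355 with all libraries. Without both siHJURP replicates 1 and 3 the median was 0.09. Of 7 pentose phosphate genes 5 rose and 1 fell (71.4% and 14.3%, against 17.6% and 20.3% of all tested genes), with a median of 0.17. PGLS, the lactonase of the oxidative branch, rose by 0.29 (adjusted p = 0.000849) and TKT, transketolase, by 0.18 (adjusted p = 0.0129), while TALDO1, transaldolase, fell by 0.15 (adjusted p = 0.0156). That fall lost its call without siHJURP replicate 1 (0.0683) and without NC replicate 3 (0.0513). For this pathway the count of risen genes was 2 without siHJURP replicate 1 or 3 or NC replicate 1, and 3 without siHJURP replicate 2. In those settings 1649 to 1985 of all tested genes rose. Without both siHJURP replicates 1 and 3 the median of the pathway was 0.14.

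Of 17 genes of the TCA cycle, 3 rose, 1 fell and 13 did not pass, with a median of 0.01. The risen share was 17.6%, the same as over all tested genes, and the fallen share was 5.88% against 20.3%. SDHC, a subunit of succinate dehydrogenase, rose by 0.23 on the log2 scale (adjusted p = 0.00363). DLST, a subunit of the 2-oxoglutarate dehydrogenase complex, fell by 0.24 (adjusted p = 0.00436). The count of fallen genes was 3 without siHJURP replicate 2 or NC replicate 1, and 2 without siHJURP replicate 3 or NC replicate 2. In those settings 2157 to 2532 of all tested genes fell. No list was tested as a whole.

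**Figure D5:**
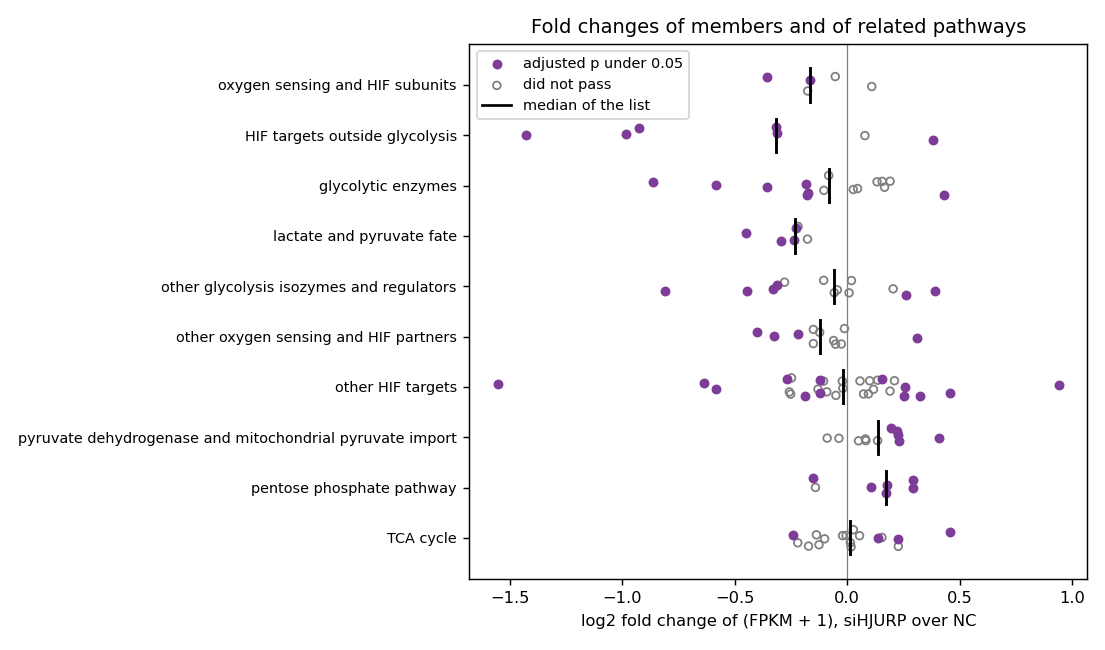
Log2 fold change of FPKM + 1, siHJURP over NC, for every tested gene of 4 groups of members and 6 related lists; filled points passed the test, open points did not, and the black bar is the median of the list. Medians run from -0.32 for HIF targets outside glycolysis to 0.17 for the pentose phosphate pathway.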

How the data were processed

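Gene expression in SKOV3 cells was measured by RNA-seq in 6 libraries, 3 of siHJURP and 3 of NC, grouped by their titles. The authors deposited FPKM values, a table for each library. The genome build was hg38 and the tools named are featureCounts 1.5.0-p3 and HISAT2 2.0.5, per the submitters' processing notes. For strand in counting and for the scaling of FPKM, the setting is not given in the sources used here. FPKM times gene length came to whole reads in 100% of values above 0, within 0.01 reads.

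All 13365 genes with a mean of at least 1 FPKM entered 1 fit of log2(FPKM + 1), made by limma 3.58.1 under R 4.3.3 (moderated, intensity trend, Benjamini-Hochberg over all of them, threshold 0.05), and only these genes and related lists are reported. The added 1 makes the fold changes of weakly expressed genes too small. The fit was tested on simulated data. Biotypes came from GENCODE 29. Isozyme ratios were compared by two-sided exact permutation tests in Python 3.11.15 with scipy 1.17.1. The members, role groups, related lists and marker lists were chosen with earlier results of these data known. Named genes are the 40 members, HJURP and, of each related list, called genes among the 4 with the smallest adjusted p, of which some are not reported here. HKDC1 and the genes that overlap members were named after their values were seen. In all, 15 of the 36 tested members overlap another tested gene, 7 of them on the same strand. Alternatives were other pseudocounts, filters and scalings, other limma settings, a replicate block, protein-coding genes alone, limma's voom on the whole reads, and libraries left out.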

Additional observations from a re-analysis of the deposited data

How the results depend on the processing

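Across 21 alternative settings, 11 of the 21 members called kept their call and direction under each: EGLN1, VEGFA, ANGPTL4, NDRG1, ADM, SLC2A1, HK2, PFKL, PGK1, PKM and SLC16A3. The remaining 10 lost their call under at least 1 setting. The median log2 fold change of the members was -0.19 with a pseudocount of 0.1 or 0.5, with voom and without both siHJURP replicates 1 and 3, -0.13 with TPM or total reads and -0.12 with quantile scaling. For glycolytic enzymes it was -0.10 with a filter at 5 FPKM, -0.023 with TPM, 0.048 with quantile scaling and -0.028 with total reads. For lactate and pyruvate fate it was -0.28 with a pseudocount of 0.1 or voom, -0.29 with the filter at 5, -0.20 with quantile scaling and -0.19 with total reads, and for HIF targets outside glycolysis -0.62 with that filter. Risen members numbered 5 with TPM, 4 with quantile scaling or array weights and 1 with the filter at 5 FPKM. Without both siHJURP replicates 1 and 3, 1844 genes changed (716 higher, 1128 lower), and 1 member rose and 10 fell. With 1 library left out, medians ran from -0.19 to -0.18 for all members, -0.12 to -0.016 for glycolytic enzymes and -0.27 to -0.22 for lactate and pyruvate fate, and 2 to 4 members rose. Signs turned for HIF1A (0.0066 with TPM, 0.057 with quantile scaling, 0.0011 with total reads), TPI1 (0.048) and GAPDH (0.016) with quantile scaling, PFKP (-0.016 without siHJURP replicate 3, to 0.12 without siHJURP replicate 2, and -0.094 without both siHJURP replicates 1 and 3) and ALDOA (-0.0053 without NC replicate 1, to 0.066 without NC replicate 2, and -0.035 without both siHJURP replicates 1 and 3). They also turned for the balance of PDK3 to PDK1 (-0.014 without siHJURP replicate 3, to 0.14 without siHJURP replicate 2) and of LDHB to LDHA (-0.019 without NC replicate 3, to 0.13 without NC replicate 1). The cause was not tested. The share of lower genes among all called was 53.5%, but 40.5% with TPM, 41.5% with total reads and 46.8% with quantile scaling. Same-numbered libraries did not deviate together (correlations 0.0025, -0.0116 and 0.0163), so no pairing by number was seen in the values. Whether they were paired in the experiment is not stated in the labels and cannot be settled by these correlations. With a replicate block 4527 genes changed, and 20 members fell and 2 rose. EGLN3, CA9, ANKRD37 and SLC2A3 were below a mean of 1 FPKM and were not tested, and CA9 and SLC2A3 had at most 14 reads per library.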
